A study of Homo sapiens with 18 samples.

Results

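The question addressed is whether macrophage-like cells that carry Siglec-14 answer tumour medium differently from cells that do not. THP-1 is a widely used cell line from a human monocytic leukaemia. Its transcriptome was read in 3 engineered lines, which carry, per the labels, an empty vector (EV), human Siglec-5 (S5) or human Siglec-14 (S14). All groups had first received PMA, a phorbol ester that turns THP-1 into adherent macrophage-like cells, at 100 nM for 24 h. They then had either a mock treatment, whose length the labels do not give, or for 48 h, as 50% of the medium, the supernatant of SW620 colorectal cancer cells (conditioned medium, CM). The 6 groups held 3 libraries each, numbered 1 to 3 in the titles, and all 18 of the 18 libraries of the series entered the comparison. The quantity described is the response of S14 (CM minus mock, log2) minus the mean response of EV and S5, with the replicate number as a block, called below the difference in response. Single responses of a line are not described for their own sake. The labels do not say whether a line is a clone or a pool, or that replicates were grown separately. The p-values therefore speak of the scatter among these libraries, part or all of which may be technical.

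Siglecs are receptors that bind sialic acids, the sugars that cap many glycans on tumour cells. Siglec-14 and Siglec-5 have nearly identical outer domains and bind similar ligands. Siglec-5 carries inhibitory motifs in its tail, whereas Siglec-14 pairs with DAP12, an ITAM adaptor encoded by TYROBP that signals through SYK and is used by many activating myeloid receptors.

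SIGLEC14 checked the S14 label. In S14 it stood at 856, 926 and 554 CPM (counts scaled to library size after TMM normalization) in mock replicates 1 to 3 and at 706, 780 and 503 CPM in CM. The 6 mock libraries of EV and S5 ranged from 13.0 to 44.1 CPM (median 25.0) and the 6 CM libraries from 16.2 to 42.2 (median 26.1), with no overlap with S14. TYROBP, the adaptor, was present in every library, at 417 to 833 CPM. SIGLEC5 did not check the S5 label: it had at most 1.15 CPM in any library, in S5 as in EV, and 77.5% of its 2360 exon bases lie inside other gene models of GENCODE release 29. In S14 mock replicate 1 it had no counts, which allows up to 0.146 CPM (3 counts). The comparison therefore uses the line labelled S5 as a second control whose transgene could not be seen in the counts, and reads of SIGLEC5 and SIGLEC14 cannot be assigned with certainty.

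Library totals ran from 14.96 M to 26.05 M counts, both in S14 CM. All 10 defining macrophage markers were detected, summing to 5816 to 8963 CPM in each library. Of 16 colorectal epithelial markers, 5 were at 0 in all libraries and the rest summed to 1.27 to 10.2 CPM. Of 14 lymphocyte markers, 1 was at 0 in all libraries and the rest summed to 9.21 to 24.6 CPM. The first principal component (43.3% of the variance) separated S14 from both other lines, and the second (23.6%) separated replicate 3 from replicates 1 and 2 in all 6 groups. Mitochondrially encoded mRNA made up 4.52% of the counts of S14 mock replicate 3, against 1.59% and 1.49% in S14 mock replicates 1 and 2. In S14 CM the shares were 3.11%, 2.88% and 4.51%, and in the EV and S5 libraries of both media they lay between 2.48% and 4.36%. What sets replicate 3 apart is not given in the labels and was not tested, and its values are given beside those of replicates 1 and 2.

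Across all 18 libraries, only 3 of 17851 genes differed in response between S14 and the mean of EV and S5 (0.0168%, edgeR's quasi-likelihood test, adjusted p under 0.05). One (0.0056%) was higher and 2 (0.0112%) were lower, and 2376 genes (13.3%) had an unadjusted p under 0.05. DESeq2 called 154 genes, 129 of them higher. ADAMTS17, a secreted metalloprotease of the extracellular matrix, was the gene with the higher response. RGS4, a GTPase-activating protein that shortens signalling by G protein-coupled receptors, and GAL3ST4, a sulfotransferase that adds sulfate to galactose on glycans, had the lower response. Both lay under the level of 10 CPM set for naming and are named because they are the only other called genes.

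ADAMTS17 (chromosome 15, 99971589 to 100342005, minus strand, GRCh38) stood at 4.78, 3.30 and 1.36 CPM in the S14 mock libraries and at 8.63, 10.6 and 1.65 CPM in S14 CM. In EV it stood at 27.7, 30.1 and 11.3 CPM in mock and at 16.0, 17.8 and 5.595 in CM, and in S5 at 27.0, 26.3 and 6.71 in mock and 16.7, 16.7 and 4.34 in CM. Every pair of S14 libraries of one number was higher in CM and every EV and S5 pair was lower. The difference in response was 1.78 ± 0.26 (log2, SE; adjusted p = 0.044), and by replicate 1.58, 2.36 and 1.07.

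RGS4 (chromosome 1, 163068775 to 163076802, plus strand) stood at 8.40, 5.25 and 4.72 CPM in S14 mock and at 0.886, 0.803 and 1.26 in S14 CM. In the 6 mock libraries of EV and S5 it ranged from 0.928 to 2.55 CPM (median 1.16), and in their 6 CM libraries from 1.16 to 3.30 (median 2.15). The S14 mock libraries lay above all others and did not overlap with them. The difference in response was -3.28 ± 0.50 (adjusted p = 0.044), and -3.83, -3.53 and -2.11 by replicate.

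GAL3ST4 (chromosome 7, 100159244 to 100168750, minus strand) stood at 5.66, 4.53 and 6.23 CPM in S14 mock and at 2.21, 1.41 and 3.92 in S14 CM. The other lines moved the opposite way: their 6 mock libraries ranged from 1.38 to 1.86 CPM (median 1.603) and their 6 CM libraries from 2.18 to 5.49 (median 3.56). The difference in response was -2.25 ± 0.33 (adjusted p = 0.044), and -2.65, -2.38 and -1.80 by replicate. None of the 3 calls was reached with upper-quartile scaling, where the smallest adjusted p was 0.0563, or without the replicate block, where their adjusted p ran from 0.205 to 0.793.

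**Figure D1:**
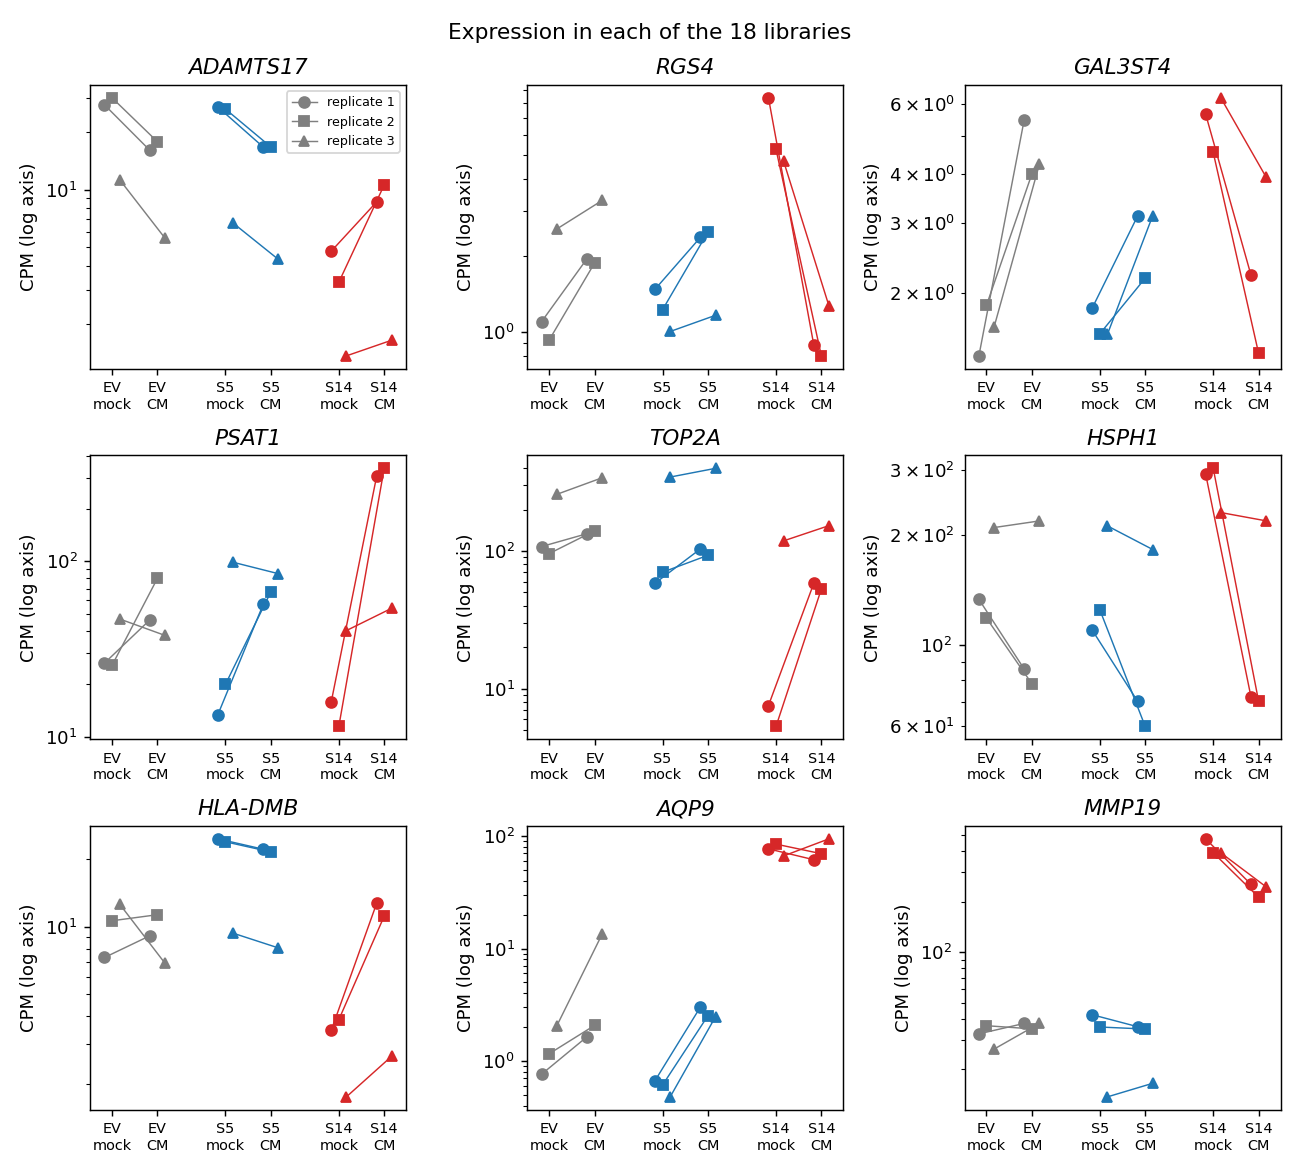
Expression of 9 genes in each of the 18 libraries, in CPM on log axes; lines join the mock and CM library of one line and replicate number, and symbols mark the number. ADAMTS17, RGS4 and GAL3ST4 show opposite slopes in S14 and in the other lines in all 3 replicates, while PSAT1, TOP2A and HSPH1 show a steep S14 slope in replicates 1 and 2 and a flatter one in replicate 3.

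With so few called, the genes with the smallest p that met the other naming criteria are given as values; none of them passed the test. P2RY12, an ADP receptor of platelets and microglia, stood at 4.88, 4.27 and 0.925 CPM in S14 mock and at 23.1, 20.8 and 1.73 in S14 CM. In the other lines it kept near the same level, with medians of 40.2 CPM in mock and 43.0 in CM, so the S14 libraries stayed below the medians of the other lines in both media. Its difference in response was 1.91 ± 0.33 (adjusted p = 0.0818). GAS6, a ligand of the TAM receptors by which macrophages take up dead cells, had a difference of 0.88 ± 0.15 (adjusted p = 0.0818), with like values in all 3 replicates (0.88, 0.96 and 0.74). SLITRK5, a membrane protein best known from neurons, gave 1.40 ± 0.25, and the pseudogene KRT17P2, which can share reads with KRT17, gave 1.14 ± 0.21 (adjusted p = 0.0885 for each).

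On the lower side, HRH1, the histamine receptor H1, stood at 163, 136 and 101 CPM in S14 mock and at 56.9, 51.5 and 80.6 in S14 CM, against medians of 20.4 and 20.9 CPM in the other lines. The S14 libraries lay above all EV and S5 libraries in both media. Its difference was -1.28 ± 0.31 (adjusted p = 0.204). ENC1, an actin-binding protein, gave -0.99 ± 0.24, NVL, a factor of ribosome assembly, -0.70 ± 0.15, AAR2, a splicing factor, -0.63 ± 0.16, and GFOD2 -0.58 ± 0.14. The adjusted p of ENC1, AAR2 and GFOD2 was 0.204, and that of NVL 0.15.

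Each control line was also taken singly. No gene was called for S14 minus EV (0%; 1907 genes, 10.7%, at an unadjusted p under 0.05; DESeq2 called 35) or for S14 minus S5 (0%; 1440 genes, 8.07%; DESeq2 called 27). These comparisons share the S14 libraries. Between the control lines, S5 minus EV, no gene was called either (0%), 112 genes (0.627%) had an unadjusted p under 0.05, and DESeq2 called 0. Those are fewer genes than this threshold gives where nothing differs, so the test was strict here. The lack of calls does not show that EV and S5 respond alike.

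The replicates did not give the same picture. Without replicate 3, 4998 of 17829 genes were called (28%), 2479 higher (13.9%) and 2519 lower (14.1%), and 6725 (37.7%) had an unadjusted p under 0.05. Without replicate 1 no gene was called, and without replicate 2 none (320 and 416 genes at an unadjusted p under 0.05). Taken singly in replicates 1 and 2, S14 minus EV was called in 4160 genes (23.3%; 11.7% higher, 11.7% lower; 34.5% at an unadjusted p under 0.05). S14 minus S5 was called in 3761 (21.1%; 10.8% higher, 10.3% lower; 32.5% at an unadjusted p under 0.05), while S5 minus EV was called in 0 (435 genes, 2.44%, at an unadjusted p under 0.05). Over genes, the differences in response of replicates 1 and 2 correlated at 0.501, those of 1 and 3 at 0.126 and those of 2 and 3 at 0.057 (17851 genes, which share their libraries and are not independent). For S5 minus EV the 3 correlations lay between -0.069 and 0.05.

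The response of S14 itself was small in replicate 3. Its SD over genes was 0.794, 0.772 and 0.42 (log2) in replicates 1 to 3, against 0.427, 0.465 and 0.437 in EV and 0.469, 0.511 and 0.419 in S5. A response of at least 1 in size was seen in 17.2% and 16.5% of genes in S14 replicates 1 and 2 and in 4.25% in replicate 3. The difference between replicate 3 and replicates 1 and 2 was itself tested, giving replicate 3 its own group means. It was called in 1327 genes (7.43%), 554 with a higher value in replicate 3 (3.1%) and 773 with a lower one (4.33%), and 21.2% of genes had an unadjusted p under 0.05. Over all genes, the difference in response had an SD of 0.73, 0.726 and 0.488 (log2) in replicates 1 to 3. The test of replicate 3 against replicates 1 and 2 has 1 library per group in replicate 3, assumed to vary like the others. It was added after replicate 3 had been seen to differ, so its calls describe these libraries and are no independent evidence. Of 4993 genes called in replicates 1 and 2, replicate 3 had the same sign in 2791 (55.9%) and at least 0.5 of the size in 579 (11.6%).

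**Figure D2:**
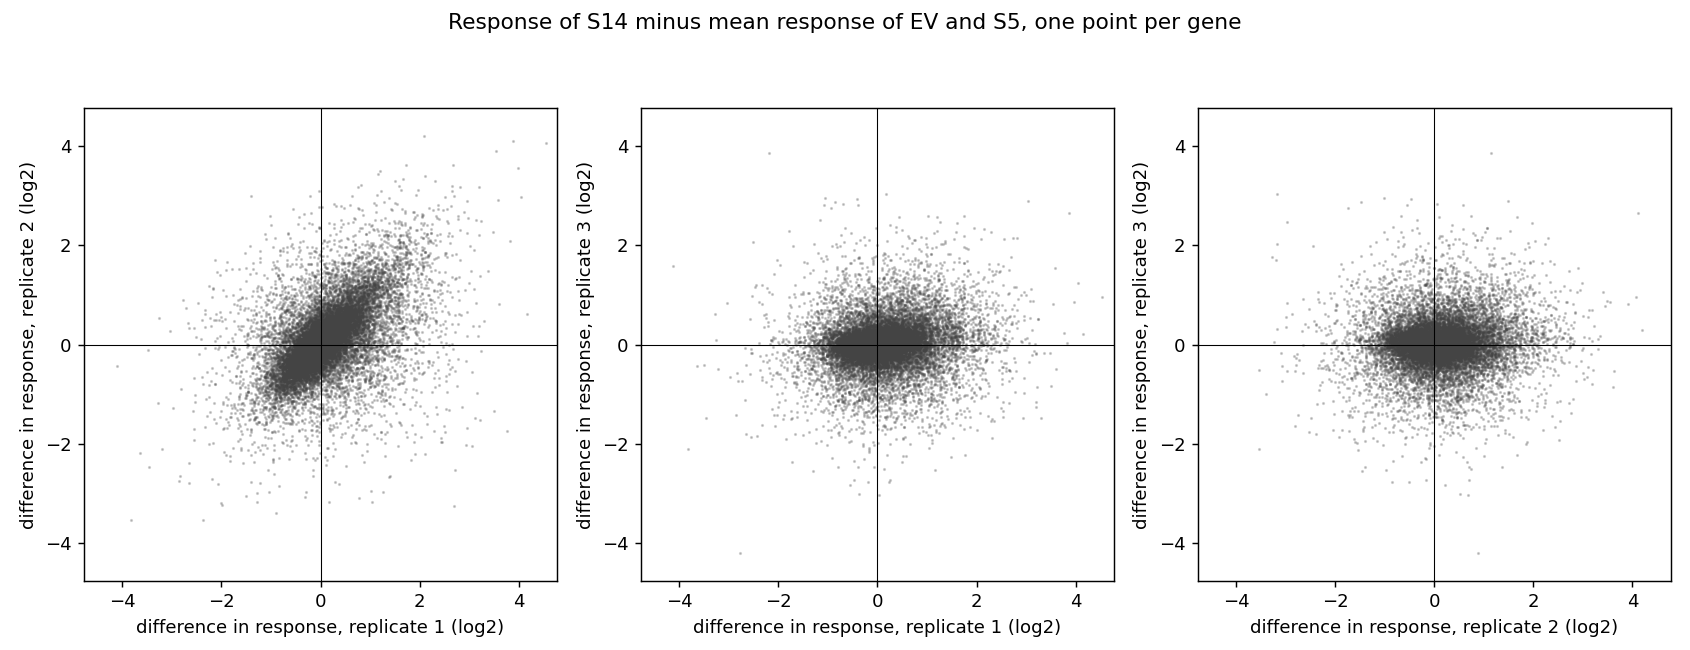
Difference in response (S14 minus the mean of EV and S5, log2) of 17851 genes in pairs of replicates, 1 point per gene. The cloud is drawn out along the diagonal for replicates 1 and 2 (correlation 0.501) and is not for either of them against replicate 3 (0.126 and 0.057).

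Single libraries were also left out. Without S14 mock replicate 3 alone, 2408 genes were called, and without S14 CM replicate 3 alone, 1017. Leaving out any of the other 16 libraries gave 0 or 1 called gene.

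In CM of replicates 1 and 2, S14 lay closer to the other lines for most called genes. The gap between S14 and the mean of EV and S5 was smaller in CM than in mock for 69.4% of the genes called higher and 75.1% of those called lower, against 61.9% of all genes. This count shares the mock libraries with the difference in response and is a description only. The median gap of the genes called higher was -0.76 in mock and 0.01 in CM, and that of the genes called lower 0.53 and -0.06 (log2). In replicate 3 the same genes had median gaps of -0.32 and -0.25, and of 0.08 and 0.09. No member of any list below was called over all 18 libraries, so counts of called members are those of replicates 1 and 2, where 13.9% of all genes were called higher and 14.1% lower. List medians over all 18 libraries stand against 0.03 for all genes. The lists were chosen with earlier results of these data known. Their shares against all genes thus describe these libraries and are no independent evidence. CCL2, MT1F, MT1X and TYROBP were called in neither set of libraries.

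The amino acid stress response was studied as a list of 36 tested genes. When amino acids run short, the kinase GCN2 phosphorylates eIF2, and the transcription factor ATF4 is then made and turns on genes of amino acid synthesis and uptake. ATF4 binds C/EBP-ATF response elements (CARE), for which TGATGNAA was searched on both strands in the 250 bases before the transcription start (RefSeq, GRCh38.p14). Of 28 list genes with a sequence (of 36 tested), 4 held it (14.3%): ASNS, CHAC1, SLC1A5 and CEBPG. It was found in 3.89% of 27305 genes. A match is a description of the sequence and not a measured site. All 8 stretches printed here and below come from windows that overlap an annotated exon of GENCODE release 29. The stretches around the match are shown for the pair described next, with the match in capitals, at chr7:97872458-97872487 (minus strand) for ASNS and chr15:40953251-40953280 (plus strand) for CHAC1.
ASNS: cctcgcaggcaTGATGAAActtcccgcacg
CHAC1: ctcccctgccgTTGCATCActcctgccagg

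No member of this list was called in the 18 libraries (0 of 36; 20 higher and 1 lower at an unadjusted p under 0.05). In replicates 1 and 2, 31 were called higher and 2 lower of 36 (86.1% higher, against 13.9% of all genes). The median difference in response was 0.89 over all libraries, and 1.18, 1.12 and 0.25 in replicates 1 to 3, against 0.05, 0.06 and 0.01 over all genes. The median gap between S14 and the other lines in replicates 1 and 2 was 0.28 in mock and 1.80 in CM. In replicate 3 it was -0.17 and 0.03.

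PSAT1 and PHGDH are enzymes of serine synthesis. PSAT1 stood at 15.9, 11.5 and 40.4 CPM in S14 mock and at 305, 339 and 54.1 in S14 CM. In the other lines it ranged from 13.4 to 99.0 CPM in mock (median 25.95) and from 37.9 to 85.2 in CM (median 61.9). Replicates 1 and 2 of S14 CM thus lay above every other library, and replicate 3 lay inside the range of the controls. The difference in response was 2.79 ± 0.91 over all libraries (adjusted p = 0.265) and 2.93 ± 0.28 in replicates 1 and 2 (adjusted p = 4.97e-05). PHGDH stood at 17.4, 17.6 and 43.4 CPM in S14 mock and 280, 330 and 65.3 in S14 CM, with differences of 2.77, 2.52 and 0.56 by replicate.

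TRIB3, a pseudokinase that feeds back on ATF4 and CHOP, had the smallest p of the list. It stood at 31.0, 28.2 and 37.5 CPM in S14 mock and at 212, 275 and 37.5 in S14 CM, against CM values of 51.5 to 75.8 in the other lines. Replicates 1 and 2 of S14 CM lay above that range and replicate 3 below it. The difference was 2.25 ± 0.65 (adjusted p = 0.249), and 2.41 ± 0.14 in replicates 1 and 2 (adjusted p = 9.13e-11). In replicate 3 it was 0.33.

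ASNS, asparagine synthetase, was a low gene here, at 0.732, 0.360 and 0.535 CPM in S14 mock and 8.78, 8.73 and 0.422 in S14 CM. The other lines reached at most 1.54 CPM. Its difference was 2.64 ± 0.84 over all libraries (adjusted p = 0.26), 3.20 ± 0.43 in replicates 1 and 2 (adjusted p = 6.36e-06) and -0.54 in replicate 3. CHAC1, which breaks down glutathione, stood at 1.32, 1.44 and 5.26 CPM in S14 mock and 59.6, 47.3 and 8.60 in S14 CM, and GPT2, a mitochondrial alanine transaminase, had differences of 2.05, 2.63 and 0.56. CHAC1 and PHGDH were chosen after their values were seen.

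The cytosolic tRNA synthetases, several of which ATF4 also controls, were called in both directions. In replicates 1 and 2, 13 of 20 were called higher (65%) and 6 lower (30%), against 13.9% and 14.1% of all genes. The list median was 0.47 over all libraries, and 0.51, 0.66 and 0.10 by replicate. AARS1, which charges alanine, stood at 212, 198 and 180 CPM in S14 mock and at 598, 674 and 230 in S14 CM, with a difference of 1.08 ± 0.11 in replicates 1 and 2 (adjusted p = 2.41e-07). EPRS1, for glutamate and proline, gave 1.01 ± 0.12. The subunits of the phenylalanine enzyme went the other way, FARSA at -0.97 ± 0.11 and FARSB at -0.97 ± 0.14. Over all 18 libraries AARS1 gave 0.98 ± 0.34, EPRS1 0.77 ± 0.25, FARSA -0.60 ± 0.20 and FARSB -0.68 ± 0.20, with adjusted p between 0.249 and 0.277.

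The list of cell cycle and DNA replication genes had a low median in S14 in mock and a less low one in CM. Of its 42 members, 33 were called higher and 0 lower in replicates 1 and 2 (78.6%, against 13.9% of all genes), and in all 18 libraries 0 were called (6 higher at an unadjusted p under 0.05). Medians by replicate were 1.18, 1.04 and 0.14. The summed level of the 42 genes was 396, 384 and 2581 CPM in S14 mock and 808, 792 and 3214 in S14 CM, against 1393 to 5673 CPM in EV and S5. S14 replicates 1 and 2 were below all controls in both media. S14 replicate 3 was below the EV and S5 libraries of its own number in both media (3381 and 5411 CPM in mock, 4052 and 5673 in CM) and above those of replicates 1 and 2. In bulk RNA, fewer cycling cells and less RNA of these genes per cell cannot be told apart. The median gap to the other lines was -2.63 in mock and -1.11 in CM in replicates 1 and 2, and -0.69 and -0.52 in replicate 3. In replicates 1 and 2 the gap was smaller in CM for 39 of 42 members (92.9%, against 61.9% of all genes). It was larger for the replication genes PCNA (-1.86 in mock, -1.92 in CM), MCM5 (-0.998 and -1.28) and FEN1 (-1.64 and -1.86). Other replication genes moved little (MCM3, -1.77 and -1.68) or clearly (CDC45, -3.68 and -2.09). The genes named next are mitotic and do not stand for the replication genes.

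TOP2A, the topoisomerase that untangles chromosomes, stood at 7.52, 5.30 and 119 CPM in S14 mock and at 58.3, 52.97 and 153 in S14 CM. The controls ranged from 58.4 to 345 CPM in mock and from 93.1 to 399 in CM. In both media replicates 1 and 2 of S14 stayed below every control library. The difference was 1.37 ± 0.59 (adjusted p = 0.352), and 2.56 ± 0.16 in replicates 1 and 2 (adjusted p = 2.54e-10). In replicate 3 it was 0.06. CDC20, the activator of the anaphase-promoting complex, stood at 8.35, 8.19 and 136 CPM in S14 mock and 48.3, 47.0 and 196 in S14 CM, with differences of 2.02, 1.81 and 0.41. CENPE, a kinetochore motor, gave 2.14, 2.40 and 0.00, KIF20A, a motor of cytokinesis, 2.38, 2.74 and 0.13, and UBE2C, a ubiquitin-conjugating enzyme of mitosis, 1.18, 0.95 and 0.52.

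Many genes of late cell cycle carry a cell cycle homology region (CHR), for which TTTGAA was searched on both strands. It was present in 11 of the 34 list genes with a sequence (32.4%) and in 16.1% of all genes. It is shown with 30 bases for both genes above that hold it, at chr1:43358904-43358933 (plus strand) for CDC20 and chr17:40418030-40418059 (minus strand) for TOP2A.
CDC20: cgacggttggatTTTGAAggagccaatagg
TOP2A: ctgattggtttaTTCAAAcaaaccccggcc

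MYB, a transcription factor of immature blood cells, was higher in S14 CM than in S14 mock where the other lines were lower. It stood at 3.51, 3.66 and 7.25 CPM in S14 mock and 9.52, 10.6 and 9.53 in S14 CM. The controls ranged from 52.8 to 246 CPM in mock and 47.8 to 227 in CM, far above S14. The difference was 1.47 ± 0.47 (adjusted p = 0.263), and 1.73 ± 0.19 in replicates 1 and 2 (adjusted p = 5.22e-07). Of 16 immature myeloid genes tested in replicates 1 and 2, 8 were called higher (50%) and 1 lower (6.25%), against 13.9% and 14.1% of all genes.

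Replication-dependent histones had negative medians in all 3 replicates, -0.52, -0.71 and -0.54. There were 0 of 15 called higher and 4 lower (26.7%, against 14.1% of all genes) in replicates 1 and 2, and 0 over all libraries (5 lower at an unadjusted p under 0.05). H1-2, a linker histone, stood at 20.9, 25.6 and 25.0 CPM in S14 mock and 7.82, 7.12 and 24.0 in S14 CM, with differences of -1.32, -2.18 and 0.19. Histone mRNAs of this class lack poly(A) tails, so a poly(A)-selected library holds only part of them.

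Among cell cycle inhibitors and p53 targets, 9 of 24 were called higher (37.5%) and 4 lower (16.7%, near the 14.1% of all genes) in replicates 1 and 2. The median was 0.24 over all libraries. TP53INP1, a p53-induced regulator of autophagy and cell death, had like values in all 3 replicates (0.99, 1.24 and 0.91), and 1.08 ± 0.26 over all libraries (adjusted p = 0.204). It stood at 15.0, 13.7 and 5.31 CPM in S14 mock and 21.9, 21.8 and 6.62 in S14 CM, while the median of the other lines was 40.8 CPM in mock and 28.8 in CM. GADD45A, a stress sensor, gave 1.72, 1.86 and 0.30, SESN2, which senses leucine, 1.04, 1.16 and 0.07, and BBC3, a pro-apoptotic BCL2 relative, 1.37, 0.96 and 0.15. SESN2 is also a member of the amino acid stress list, so the counts of these lists are not separate observations.

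**Figure D3:**
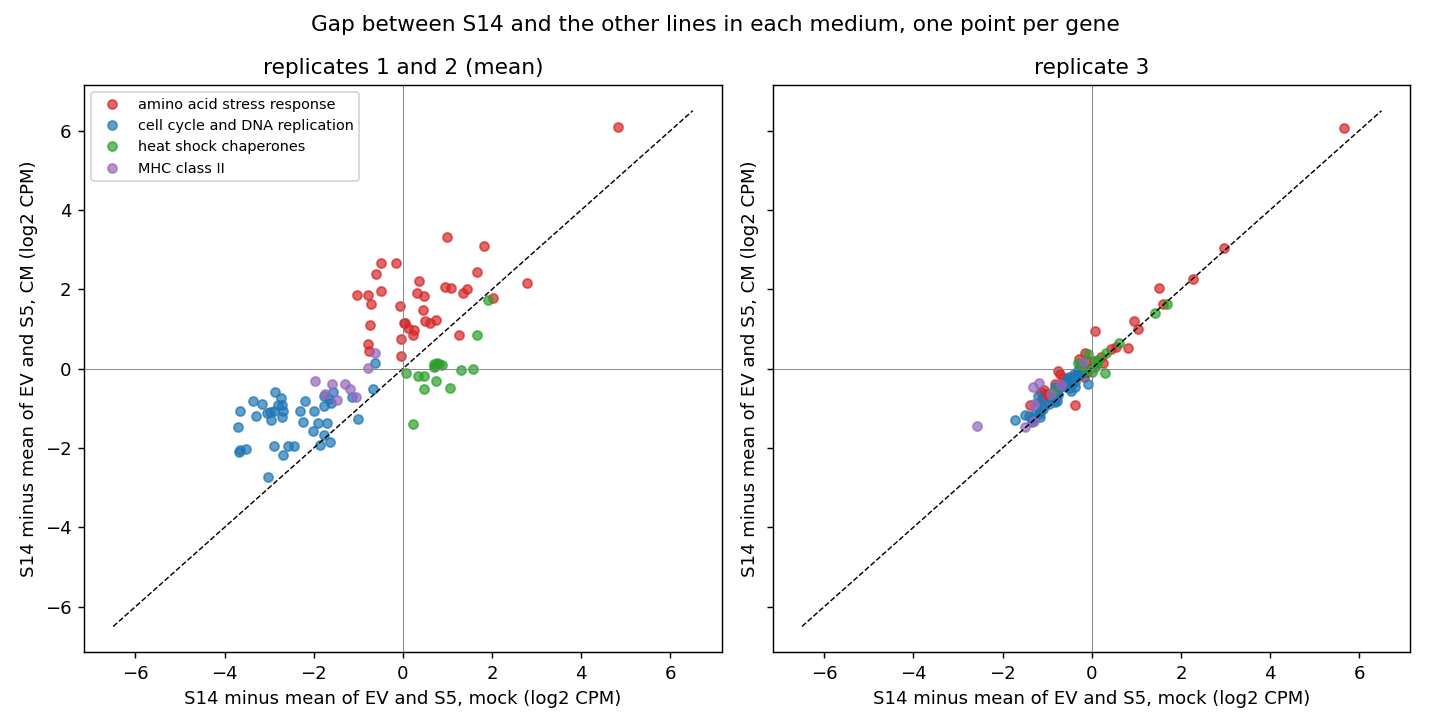
Gap between S14 and the mean of EV and S5 (log2 CPM) in mock (horizontal) and CM (vertical), 1 point per gene, for 4 lists. The vertical offset from the dashed diagonal is the difference in response, positive above it. In replicates 1 and 2 most amino acid stress genes lie above the diagonal, with median gaps of 0.28 in mock and 1.80 in CM. The median of the cell cycle and DNA replication genes moves from -2.63 to -1.11 and that of the heat shock genes from 0.74 to -0.01. For 8 MHC class II genes it moves from -1.25 to -0.45. In replicate 3 most points lie close to the diagonal, but the median of the 8 MHC class II genes moves from -1.24 to -0.56.

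Heat shock chaperones, which fold stressed or newly made proteins under the transcription factor HSF1, had a lower response in replicates 1 and 2. There 15 of 17 were called lower and 0 higher (88.2%, against 14.1% of all genes), and over all libraries 0 were called (10 lower at an unadjusted p under 0.05). The medians were -0.76, -0.73 and 0.07 by replicate. HSPH1, a nucleotide exchange factor of HSP70, stood at 293, 304 and 230 CPM in S14 mock and at 72.0, 70.3 and 218 in S14 CM. The other lines had medians of 129 CPM in mock and 82.1 in CM, so the S14 mock libraries lay above all mock controls while S14 CM replicates 1 and 2 lay inside the control range. The difference was -0.998 ± 0.37 (adjusted p = 0.29), and -1.37 ± 0.12 in replicates 1 and 2 (adjusted p = 3.48e-08).

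FKBP4, a co-chaperone of steroid receptors, had differences of -1.67, -1.52 and 0.07, and DNAJA1, an HSP40, of -1.02, -1.06 and 0.03. HSP90AA1 stood at 1748, 1678 and 1593 CPM in S14 mock and 769, 799 and 1512 in S14 CM, with a difference of -0.42 ± 0.22 over all libraries (adjusted p = 0.414) and -0.66 ± 0.11 in replicates 1 and 2 (adjusted p = 0.000111). HSF1 binds heat shock elements (HSE), alternating GAA and TTC units spaced by 2 bases, which were searched as 3 such units on both strands. Of 16 list genes with a sequence, 5 held one (31.2%), against 0.557% of all genes. They are shown for HSP90AA1 at chr14:102087112-102087141 and for HSPD1, a mitochondrial chaperonin, at chr2:197500060-197500089 (both minus strand).
HSP90AA1: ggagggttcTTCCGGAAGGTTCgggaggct
HSPD1: cattttctgGAAAGTTCTGGAAccgagcga

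Of the ER chaperones, 2 of 25 were called higher (8%) and 3 lower (12%) in replicates 1 and 2. The shares of all genes were 13.9% and 14.1%. The ER list had a median of -0.01 over all libraries. The share of mitochondrial mRNA given above is the sum over the 13 mitochondrially encoded genes, so the share and this list are 1 observation. Of these, 12 were called higher in replicates 1 and 2 (92.3%, against 13.9% of all genes). The median gap there went from -0.59 in mock to 0.03 in CM. In replicate 3 it was 0.33 and 0.26. MT-CO1, a subunit of cytochrome oxidase, stood at 4463, 4289 and 12020 CPM in S14 mock and at 8931, 8498 and 13130 in S14 CM, with a difference of 0.65 ± 0.11 in replicates 1 and 2 (adjusted p = 0.000142). Over all libraries its value was 0.41 ± 0.24 (adjusted p = 0.473). What part the low share in S14 mock replicates 1 and 2 has in the other results was not tested.

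The list of metallothioneins, small zinc-binding proteins, and a zinc exporter had positive medians in all 3 replicates, namely 1.201, 0.86 and 0.76. Of 6 tested, 0 were called over all libraries (4 higher at an unadjusted p under 0.05). There were 2 called higher in replicates 1 and 2 (33.3%, against 13.9% of all genes). MT2A stood at 1.66, 0.772 and 13.7 CPM in S14 mock and at 5.98, 6.07 and 13.2 in S14 CM. Within S14 the replicate 3 libraries had like levels, and the positive difference of 0.86 came with control values that were lower in CM (12.5 and 6.68 CPM in EV, 32.5 and 17.1 in S5). The difference was 1.38 ± 0.56 (adjusted p = 0.323), and 2.13 ± 0.31 in replicates 1 and 2 (adjusted p = 1.94e-05). MT1E gave 1.14 ± 0.41, MT1F 0.84 ± 0.37 and MT1X 1.25 ± 0.46. Metallothionein genes are near-identical copies whose reads the counting could split.

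Zinc acts on these genes through metal response elements (MRE), searched as TGCACNC and TGCGCNC on both strands. All 3 list genes with a sequence held one (MT2A, MT1X and SLC30A1), as did 28.5% of all genes. The MT2A window held 7 matches and the MT1X window 4, of which some are shown, at chr16:56608426-56608455 and chr16:56682405-56682434 (both plus strand).
MT2A: ccgggTGCGCCCggcccagTGCGCGCggcc
MT1X: aggcggggcctcTGCGCCCggccctcttcc

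MHC class II molecules present peptides to helper T cells. Of 9 genes tested, 8 had a positive difference in all 3 replicates, against 22.3% of all genes, and 5 of 8 were called higher in replicates 1 and 2 (62.5%, against 13.9%). Over all 18 libraries 0 were called (5 higher at an unadjusted p under 0.05), and the median was 0.84. HLA-DMB, a chain of the peptide loader HLA-DM, stood at 3.47, 3.86 and 1.75 CPM in S14 mock and at 12.7, 11.1 and 2.66 in S14 CM. In the other lines the medians were 11.6 CPM in mock and 10.2 in CM, and S14 overlapped with them only in CM, in replicates 1 and 2. The difference was 1.68 ± 0.50 (adjusted p = 0.251), with 1.76, 1.54 and 1.12 by replicate. HLA-DMA gave 1.17, 0.41 and 0.85, HLA-DRB1 0.89, 0.48 and 0.28, and HLA-DQB1 1.47, 0.57 and 0.40.

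Of the genes of resident macrophages, 11 of 27 were called higher (40.7%) and 7 lower (25.9%) in replicates 1 and 2, against 13.9% and 14.1% of all genes. Their median was 0.08 over all libraries. C1QA, a chain of complement C1q, stood at 2.15, 1.54 and 3.60 CPM in S14 mock and 5.24, 5.37 and 3.29 in S14 CM, against medians of 86.1 and 52.2 CPM in the other lines. All S14 libraries lay below all others. Its difference was 1.66 ± 0.42 (adjusted p = 0.221), and 1.75, 1.93 and 1.21 by replicate. SELENOP, a selenium carrier, gave 2.14, 1.27 and 1.37, and FOLR2, a folate receptor of tissue macrophages, 1.37, 2.04 and 2.09, at under 1 CPM in every S14 library. MERTK, a TAM receptor for dead cells, was on the lower side, with 124, 105 and 110 CPM in S14 mock and 62.6, 45.2 and 104 in S14 CM (-0.91, -1.17 and -0.40).

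Of the genes of DAP12 and ITAM signalling, through which Siglec-14 acts, 10 of 29 were called higher (34.5%) and 2 lower (6.9%) in replicates 1 and 2, against 13.9% and 14.1% of all genes. Their median was 0.12 over all libraries. OSCAR, a collagen receptor that signals through the related adaptor FCER1G, stood at 13.6, 11.0 and 18.4 CPM in S14 mock and at 55.1, 60.1 and 20.5 in S14 CM. The other lines had medians of 13.2 and 18.6 CPM, and all S14 CM libraries lay above all of them, replicate 3 by little. Its difference was 1.24 ± 0.35 over all libraries (adjusted p = 0.231), 1.76 ± 0.15 in replicates 1 and 2 (adjusted p = 2.31e-08) and 0.01 in replicate 3. FCGR1A, the high-affinity IgG receptor, gave 1.13, 1.202 and 0.04, the kinase FYN 0.95, 1.03 and 0.03, and PIK3CD, a leukocyte PI3 kinase, 0.95, 0.98 and 0.07. TYROBP itself was called in neither set of libraries.

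Within the Siglec family, 7 of 11 were called higher (63.6%, against 13.9% of all genes) and 0 lower in replicates 1 and 2. The list median was 0.98, 0.47 and -0.22 in replicates 1 to 3 and 0.39 over all libraries. SIGLEC1, the macrophage receptor sialoadhesin, had positive differences in all 3 replicates (0.92, 0.37 and 1.052). It stood at 81.0, 65.4 and 31.9 CPM in S14 mock and 76.5, 49.0 and 42.9 in S14 CM, while the median of the other lines was 80.3 CPM in mock and 46.4 in CM. Its difference was 0.75 ± 0.27 (adjusted p = 0.277). CD22, an inhibitory Siglec best known from B cells, gave 1.047, 1.22 and -0.19, SIGLEC11 1.94, 1.53 and 0.26, and CD33 0.40, 0.58 and 0.10. Siglec genes are close paralogs, so the counting could split their reads.

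Among sialyltransferases, which make Siglec ligands, and other genes of sialic acid metabolism, 6 of 20 were called higher (30%) and 2 lower (10%) in replicates 1 and 2, against 13.9% and 14.1% of all genes. Their median was 0.145 over all libraries. ST6GAL1, which adds sialic acid in α2,6 linkage to N-glycans, stood at 40.3, 39.1 and 39.2 CPM in S14 mock and at 91.7, 101 and 34.5 in S14 CM. Replicates 1 and 2 of S14 CM lay above all other libraries, and replicate 3 below them. The difference was 1.40 ± 0.12 in replicates 1 and 2 (adjusted p = 2.28e-08) and 1.048 ± 0.28 over all (adjusted p = 0.227). ST6GALNAC3, which adds sialic acid to GalNAc, was under 0.7 CPM in S14 mock and stood at 6.94, 6.32 and 0.633 CPM in S14 CM. NPL, the lyase that breaks sialic acid down, had -0.54, -0.50 and -0.42 by replicate.

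Of the genes of the NF-kB pathway, 1 of 23 was called higher (4.35%) and 9 lower (39.1%) in replicates 1 and 2. The shares of all genes were 13.9% and 14.1%. Those called lower included the transcription factor itself. The list median was -0.20 over all libraries, and -0.13, -0.40 and 0.02 by replicate. RELA stood at 191, 206 and 85.9 CPM in S14 mock and at 69.5, 79.5 and 82.6 in S14 CM, and at 78.7 to 105 CPM in the EV and S5 libraries of both media. Only S14 mock replicates 1 and 2 were outside the range of the controls on the high side. The difference was -0.83 ± 0.24 over all libraries (adjusted p = 0.241), -1.18 ± 0.11 in replicates 1 and 2 (adjusted p = 8.45e-08) and -0.05 in replicate 3. NFKBIB, an inhibitor of the factor, gave -1.41, -1.70 and 0.23, and NFKBIZ, a coactivator, 0.89, 0.98 and 0.48.

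Of the inflammatory cytokines and chemokines, 8 of 24 were called higher (33.3%) and 3 lower (12.5%, near the 14.1% of all genes) in replicates 1 and 2. Their median was 0.155 over all libraries. CCL2, which attracts monocytes, stood at 3.86, 2.32 and 47.8 CPM in S14 mock and 0.664, 0.602 and 22.6 in S14 CM. The other lines ranged from 0.175 to 13.5 CPM in mock (median 0.518) and from 0 to 11.3 in CM (median 0.329). Many control values of CCL2 thus rested on few counts. Its differences were -1.11, -1.86 and -0.76. CXCL1 and CXCL3, which attract neutrophils, gave -2.18, -2.72 and -0.32, and -2.25, -2 and -0.77, at levels under 11 CPM and with near-identical sequence. Over all libraries CXCL1 gave -2.145 ± 0.64 against EV but -0.709 ± 0.728 against S5. CXCL3 gave -1.803 ± 0.673 and -1.552 ± 0.829. TNFSF13B, the B cell factor BAFF, gave 0.93, 1.19 and 0.03. None was called over all 18 libraries (adjusted p from 0.265 to 0.312). Of the interferon-stimulated genes, 4 of 47 were called higher (8.51%) and 7 lower (14.9%, near the 14.1% of all genes) in replicates 1 and 2, with a median of 0.03 over all libraries. LGALS3BP, a secreted glycoprotein, gave 1.39, 0.96 and 0.39, and IFIT3, which binds viral RNA with its relatives, -0.59, -0.49 and -0.59.

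Among ligands and receptors by which macrophages meet T cells, 8 of 24 were called higher (33.3%) and 4 lower (16.7%, near the 14.1% of all genes) in replicates 1 and 2. Their median was 0.07 over all libraries. CD47, which sends macrophages a signal not to engulf, gave 0.72, 0.87 and 0.14, and the ectonucleotidase ENTPD1 1.35, 1.45 and -0.02. ENTPD1 stood at 20.01, 19.1 and 21.3 CPM in S14 mock and at 54.4, 55.4 and 17.7 in S14 CM, against medians of 103.5 and 110 CPM in the other lines. CD274, which encodes PD-L1, stood at no more than 5 CPM in any library. TNFSF9, a costimulatory ligand, had -0.61, -0.75 and -0.47 by replicate.

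Single genes of the matrix and of TGF-beta signalling stood high in S14. MMP19, a matrix metalloprotease, stood at 475, 392 and 392 CPM in S14 mock and at 254, 213 and 245 in S14 CM. The EV and S5 libraries of both media ranged from 13.7 to 42.3 CPM, far below all S14 libraries. Its differences were -0.89, -0.83 and -1.06 by replicate, -0.90 ± 0.33 over all libraries (adjusted p = 0.284) and -0.89 ± 0.12 in replicates 1 and 2 (adjusted p = 7.12e-06).

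INHBA, which encodes the activin A subunit, stood at 32.2, 34.3 and 9.44 CPM in S14 mock and at 6.57, 5.12 and 6.79 in S14 CM. It was at most 0.524 CPM in EV and S5, where single libraries had no counts (3 counts allow up to 0.143 CPM in EV mock replicate 1). The S14 libraries lay above the controls in both media. Its difference was -2.86 ± 0.66 in replicates 1 and 2 (adjusted p = 0.00216) and -1.83 ± 0.94 over all (adjusted p = 0.416). SMAD7, an inhibitor induced by TGF-beta, gave -1.08, -0.74 and -0.30, and KLF10, an early TGF-beta target, -1.31, -0.80 and -0.49. Of the matrix list 10 of 37 were called higher (27%) and 9 lower (24.3%) in replicates 1 and 2. Of the TGF-beta list 3 of 25 were called higher (12%) and 5 lower (20%). The shares of all genes were 13.9% and 14.1%. The single genes above therefore do not stand for their lists.

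Of the genes of lipid handling, 7 of 23 were called higher (30.4%) and 6 lower (26.1%) in replicates 1 and 2, against 13.9% and 14.1% of all genes. Their median was 0.07 over all libraries. PLIN2, which coats lipid droplets, stood at 3677, 4485 and 546 CPM in S14 mock and at 520, 431 and 595 in S14 CM. The other lines ranged from 256 to 746 CPM in mock (median 469) and from 195 to 412 in CM (median 256). S14 mock replicates 1 and 2 lay far above all other libraries, and replicate 3 lay inside the range of the mock controls. The difference was -1.52 ± 0.66 over all libraries (adjusted p = 0.352) and -1.96 ± 0.16 in replicates 1 and 2 (adjusted p = 2.35e-08). In replicate 3 it was 0.23. CD36, a scavenger receptor for lipids, gave -0.93, -0.53 and -0.46, and NPC1, which exports cholesterol from lysosomes, 0.89, 0.91 and -0.38.

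Of the genes of cholesterol synthesis, 12 of 23 were called higher (52.2%, against 13.9% of all genes) and 0 lower in replicates 1 and 2. Medians were 0.27 over all libraries and 0.43, 0.34 and -0.03 by replicate. IDI1 gave 0.72, 0.64 and 0.04, and EBP 0.84, 0.61 and 0.05; both are enzymes of the pathway. Of 20 glycolysis genes, 2 were called higher (10%) and 9 lower (45%), against 13.9% and 14.1% of all genes. Their median was -0.20 over all libraries. PKM, pyruvate kinase, stood at 2742, 3190 and 2828 CPM in S14 mock and 1425, 1314 and 2672 in S14 CM, with -0.70, -1.01 and -0.16, and TPI1 gave -0.43, -0.82 and 0.07. ANGPTL4, an inhibitor of lipoprotein lipase and a hypoxia target, stood at 4.44, 5.20 and 2.04 CPM in S14 mock and 0.590, 0.753 and 0.675 in S14 CM, and at no more than 0.253 CPM in EV and S5. Of 23 hypoxia genes, 1 was called higher (4.35%) and 6 lower (26.1%) in replicates 1 and 2, against the same shares of all genes. Their median was -0.14 over all libraries.

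AQP9, a channel for water, glycerol and small solutes, was chosen after its values were seen because its differences were alike in all 3 replicates (-1.84, -1.63 and -1.91). It stood at 76.97, 84.8 and 66.6 CPM in S14 mock and at 61.6, 69.7 and 94.5 in S14 CM. In S14 the level was lower in CM in replicates 1 and 2 and higher in replicate 3, while the other lines ranged from 0.479 to 2.05 CPM in mock and from 1.64 to 13.4 in CM. The value over all libraries was -2.16 ± 0.64 (adjusted p = 0.256). MIR223HG, the host transcript of the myeloid microRNA miR-223, was likewise chosen after its values were seen. It stood at 4.98, 4.12 and 11.2 CPM in S14 mock and at 33.5, 34.5 and 14.0 in S14 CM, with differences of 2.64, 2.80 and 0.00, 1.69 ± 0.48 over all libraries (adjusted p = 0.244) and 2.69 ± 0.15 in replicates 1 and 2 (adjusted p = 9.13e-11).

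The other lists gave these counts in replicates 1 and 2. They are read against 13.9% and 14.1% of all genes. Of 27 lysosomal genes 14 were called higher (51.9%) and 3 lower (11.1%). Genes of alternatively activated and tumour-associated macrophages gave 7 of 19 higher (36.8%) and 3 lower (15.8%), and their median turned from 0.46 and 0.40 to -0.18 in replicate 3. Of 35 immediate early and ERK feedback genes 4 were called higher (11.4%) and 13 lower (37.1%). Targets of the antioxidant factor NRF2 gave 1 of 20 higher (5%) and 6 lower (30%). Near the share of all genes were the 8 of 48 ribosomal protein genes called higher (16.7%), the 5 of 35 nuclear genes of oxidative phosphorylation called lower (14.3%), and the 3 and 3 of 17 MHC class I genes (17.6% each). Below it were 1 ribosomal protein gene called lower (2.08%) and 1 gene of oxidative phosphorylation called higher (2.86%).

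Of the 10 macrophage markers, 4 were called higher (40%) and 1 lower (10%) in replicates 1 and 2, against 13.9% and 14.1% of all genes. Their median was 0.08 over all libraries and -0.09 in replicates 1 and 2. CD14, the coreceptor for lipopolysaccharide, stood at 147, 149 and 321 CPM in S14 mock and at 465, 477 and 387 in S14 CM, with differences of 1.44, 1.17 and 0.19. CSF1R, the receptor of the growth factor M-CSF, stood at 2511, 2607 and 1289 CPM in S14 mock and at 974, 1010 and 1213 in S14 CM. Its differences were -0.91, -0.93 and -0.26. ITGAM, an integrin chain of macrophages, gave 0.67, 0.91 and -0.09.

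**Figure D4:**
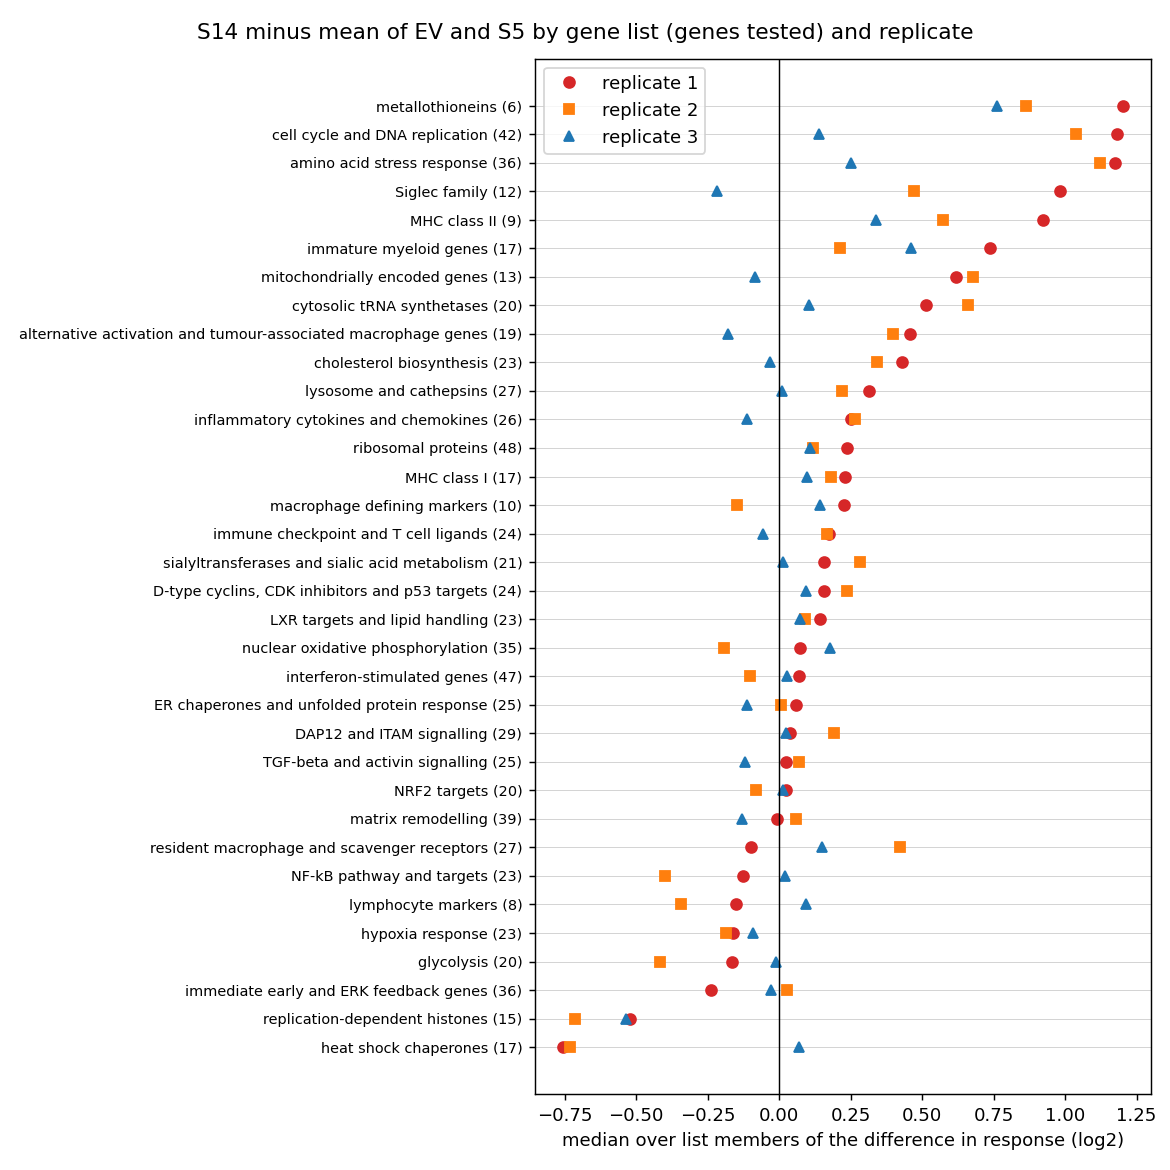
Median difference in response (S14 minus the mean of EV and S5, log2) of each gene list with at least 5 tested members, by replicate; the number of genes is in brackets. Amino acid stress, cell cycle and metallothionein genes have medians from 0.86 to 1.201 in replicates 1 and 2, and heat shock chaperones -0.76 and -0.73; in replicate 3 metallothioneins (0.76) and histones (-0.54) lie farthest from 0.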

How the data were processed

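The authors' deposited table held raw read counts per gene for each of the 18 libraries, and TPM values, which as deposited by the authors entered no result. Reads were aligned with HISAT2 to GRCh38, per the submitters' processing notes. The HISAT2 version, the counting program, its strand setting and its annotation were each not given in the sources used here. Overlapping, antisense and near-identical genes are therefore uncertain. Per the labels' protocols, NucleoZol RNA went into TruSeq Stranded mRNA libraries. No per-sample column was left unmapped.

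Of 60623 genes, edgeR's expression filter by group kept 17851 (17829 in replicates 1 and 2). A quasi-likelihood model with robust dispersion and TMM scaling held 1 mean per group and the replicate number as a block (edgeR 4.0.16, limma 3.58.1, R 4.3.3). Benjamini-Hochberg adjustment ran over all genes tested in each of 4 comparisons. Differences by replicate are taken from log2 CPM with a prior count of 2. Deviations from the group means were correlated among the 15 pairs of libraries of each number. The values were 0.195 to 0.586, 0.155 to 0.504 and 0.384 to 0.794 in replicates 1, 2 and 3. Replicate 3 stood apart in every group, which by itself makes such correlations positive. They therefore do not show that the numbers pair the libraries. DESeq2 1.42.0 was an alternative.

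The members and the 35 gene lists were chosen with earlier results of these data known. Named genes were up to 12 called genes per direction with at least 10 CPM, 1 sign in all replicates and against both lines. With fewer called, up to 5 uncalled genes of smallest p filled each direction. Up to 4 members per list with the smallest p and at least 1 CPM were added. Some of these are not described. HSP90AA1 and KIF20A, and others so marked, were added after values were seen; a few genes are named only for a motif or a pathway. Positions are from GENCODE release 29 and promoter sequences from RefSeq. Floors of 3 counts cover counting error only.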

Additional observations from a re-analysis of the deposited data

Results flagged for a closer look

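The responses of ADAMTS17 (1.777, log2 difference in response), RGS4 (-3.278) and GAL3ST4 (-2.245) differed between S14 and the mean of the other lines by the test itself. In TP53INP1 (1.083), MYB (1.466), FLT3 (0.849) and FOLR2 (2.108), CPM was higher in CM than in mock in all 3 S14 pairs and lower in all 6 pairs of EV and S5. In H4C15 (-1.62), CXCL3 (-1.677) and SCG5 (-2.107) the reverse held. For these 7 genes the difference did not pass the test across all genes, and the opposite signs were not tested as such. Only the 106 named genes were searched for opposite signs. Most of them were chosen for a small p of this same difference, and SCG5 after its values were seen. Opposite signs are thus favoured by the choice and are no independent evidence. The share of all genes with such signs was not counted. H4C15 was also not called in replicates 1 and 2 (adjusted p = 0.0889).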

How the results depend on the processing

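The count of 3 genes called for S14 minus the mean of EV and S5 was 3 with RLE size factors and when a difference of at least 1 was also asked, 12 without a filter on low counts, 154 with DESeq2 (129 higher), and 0 with upper-quartile scaling or with no replicate block. With replicate 3 given its own means, the contrast then estimated from replicates 1 and 2 called 4898. Leaving out a replicate number gave 0 to 4998, and leaving out 1 library 0 to 2408. For S14 minus EV the 0 calls became 7 without a filter and 35 with DESeq2, and 0 to 4160 without 1 number or library. For S14 minus S5 they became 2 and 27, and 0 to 3761. S5 minus EV stayed at 0 calls in each alternative run. The count of 1327 genes for the difference in response, replicate 3 minus replicates 1 and 2, ranged from 692 (without S14 mock replicate 2) to 2567 (without S5 CM replicate 1) and 2226 (without S5 CM replicate 2). No named gene changed sign but TYROBP, from a value near 0 to 0.013 with upper-quartile scaling, and between -0.187 and 0.136 as replicates or single libraries were left out. ADAMTS17 was called in 8, RGS4 in 10 and GAL3ST4 in 9 of 28 alternatives; ADAMTS17 ranged from 1.40 to 1.98. The causes were not tested, and each omission also left fewer samples. Depth limits genes with few counts, such as RGS4, ASNS, FOLR2, INHBA, ANGPTL4 and, in many EV and S5 libraries, CCL2.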
